A study of Homo sapiens with 9 samples.

Results

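The untreated cells of this series are the 3 arrays of cells that received 0 nM okadaic acid, out of 9 arrays in all, and they were chosen by their labelled treatment alone. All 9 arrays hold total RNA from cells labelled SH-SY5Y, a human neuroblastoma line, and the remaining 6 come from cells given 20 nM or 60 nM okadaic acid, an inhibitor of serine/threonine protein phosphatases, for 12 h. The untreated cells went through the same 12 h in medium with reduced serum, after growth in high-glucose DMEM with serum. The labelling as biological replicates does not say whether separate cultures were used, so the p-values below measure the spread between these arrays, which may be technical. No comparison between treatments was made; the untreated arrays were described on their own.

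SH-SY5Y was derived as a subclone of a neuroblastoma line and is used as a model of sympathetic and dopaminergic neurons. Neuroblastoma arises from the sympathoadrenal branch of the neural crest, in which a circuit of transcription factors with PHOX2A, HAND2, GATA3 and ISL1 turns on the enzymes that make noradrenaline. Neuroblastoma cells can also take a mesenchymal state, in which those factors are low and genes of matrix, adhesion and YAP or Notch signalling are high.

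Expression was given as log2 intensity, one value per gene and array. A gene was called above or below background by comparing it, array by array, with the 95th percentile of the array's 23 background probe sets, which was 5.70, 5.73 and 5.73 on replicates 1, 2 and 3. The test was limma's moderated test against that level, two-sided, at a Benjamini-Hochberg adjusted p under 0.05 over 22465 genes. Of these genes 43.1% (9693) were above the level, 53.9% (12111) were below it and 661 could not be told apart from it. Protein-coding genes were above it in 8449 of 16837 cases (50.2%) and long non-coding RNA genes in 166 of 1332 (12.5%). Intensity depends on how well each probe set binds its target, so an order of genes by intensity is an order of brightness, not of transcript amount, and below the level means not detected, not that no RNA was present. The counts for gene lists are tied to the level: with the lower olfactory receptor level the count of 47 of 86 lists moved by over 1.5 times. These are bulk samples, in which fewer cells of a type and less RNA per cell cannot be told apart.

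Gene groups with a known state bracketed the level. All 27 measured housekeeping genes were above it, with means from 9.33 to 18.12 and a median of 12.26. Olfactory receptors, which are largely confined to the nose, were below it in 362 of 364 cases, with a median of 3.65. The exceptions were OR7G1, at 11.36, 11.37 and 11.48, and OR10P1, at 6.35, 6.28 and 6.41. No beta-defensin (0 of 30), lens crystallin (0 of 12) or haemoglobin gene (0 of 5) was above it in limma's test, and all of them were called below. Among the brightest protein-coding genes were the linker histone H1-4, at 18.92 ± 0.17 (SD, n = 3), the cytoplasmic actin ACTG1, at 18.12 ± 0.08, the tubulin TUBA1B, at 17.85 ± 0.09, the elongation factor EEF1A1, at 17.64 on each array, and the chaperone CALR, at 17.61 ± 0.09. The choline transporter-like gene SLC44A4, at 18.28, ranked among them through 1 of its 8 probe sets, while the others lay at 4.33 to 4.35, and its level is therefore uncertain. The plot of intensities by gene group shows the distance between the housekeeping genes and the olfactory receptors.

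**Figure D1:**
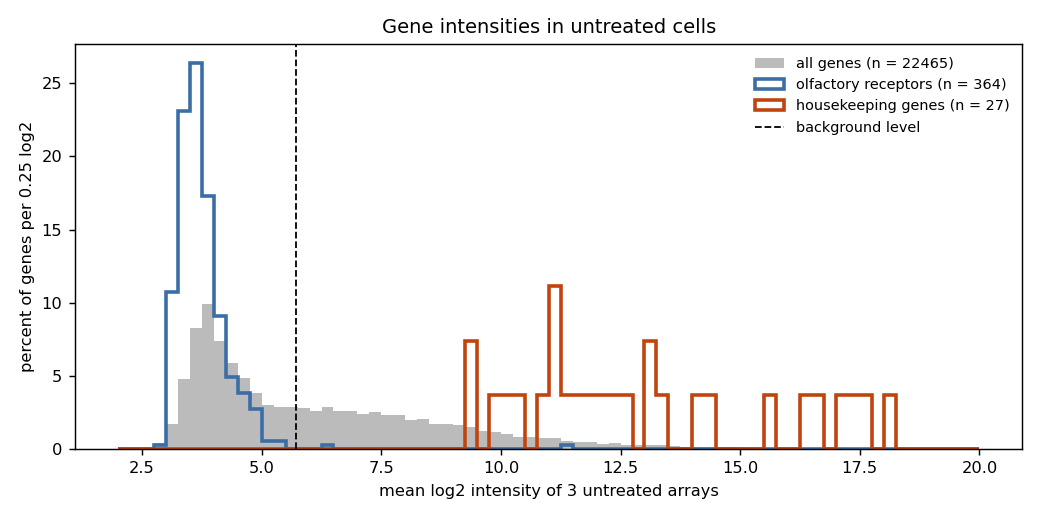
Distribution of the mean log2 intensity of the 3 untreated arrays, as the percent of genes in each bin of 0.25, for 22465 genes, 364 olfactory receptors and 27 housekeeping genes; the dashed line is the mean background level. The dimmest housekeeping gene lies at 9.33, while 362 olfactory receptors lie below the line.

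Noradrenergic transcription factors were divided between detected and undetected members. Of 24 measured, 8 were above the level and 15 below, that is 33.3% above against 43.1% of all genes. This order depends on the level: with the lower level set by the olfactory receptors 18 of 24 (75%) were above, against 55.9% of all genes. PHOX2A, a master regulator of noradrenergic neurons, lay at 3.40, 3.54 and 3.53, near the median of the olfactory receptors. ISL1 lay at 5.25, 5.21 and 5.21, and HAND2 lay at 4.96, 4.96 and 4.98. All of these values are under the background level. ISL1 and HAND2, but not PHOX2A, are above the olfactory receptor level. TFAP2B, a neural crest factor, had a mean of 3.87.

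The noradrenergic factors that were detected included several with roles in other tissues. GATA2 lay at 7.70, 7.71 and 7.87, and GATA3 at 7.26, 7.33 and 7.38, both zinc finger factors also used in blood, trophoblast and epithelia. HAND1, a bHLH factor of heart, trophoblast and sympathetic precursors, lay at 8.54, 8.54 and 8.89. The Notch target HEY1 lay at 9.23, 9.31 and 9.35. Each was above background on all 3 arrays, by 1.60 ± 0.03 (SE) for GATA3, 2.04 ± 0.04 for GATA2, 2.93 ± 0.09 for HAND1 and 3.57 ± 0.03 for HEY1 on the log2 scale, with limma adjusted p of at most 3.34e-05. The remaining members above the level were SOX4 (10.18), PBX3 (8.31), TBX3 (8.29) and EYA1 (6.53). MYCN, an oncogene amplified in some neuroblastomas and named here after its value was seen, had a mean of 4.12, while its relative MYC had one of 8.88.

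The promoters of a detected and an undetected factor, and of a detected and an undetected effector, are shown to set the calls beside the sequence in which CpG content was counted. These 4 genes were chosen after their values were seen. Each sequence is the 250 bases before the gene's start in RefSeq (GRCh38.p14), written 5′ to 3′ on the gene's strand with every CG in capitals. GATA2 (above background, 24 CG) is at chr3:128493202-128493451 on the minus strand and PHOX2A (below, 26 CG) at chr11:72244177-72244426 on the minus strand. KRT8 (above, 1 CG) is at chr12:52926470-52926719 on the minus strand and DBH (below, 5 CG) at chr9:133636113-133636362 on the plus strand.
GATA2: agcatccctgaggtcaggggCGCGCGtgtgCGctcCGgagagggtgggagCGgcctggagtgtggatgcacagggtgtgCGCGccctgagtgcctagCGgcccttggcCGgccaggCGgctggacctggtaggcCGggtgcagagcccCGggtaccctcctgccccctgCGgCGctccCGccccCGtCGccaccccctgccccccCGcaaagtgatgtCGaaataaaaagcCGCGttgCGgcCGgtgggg
PHOX2A: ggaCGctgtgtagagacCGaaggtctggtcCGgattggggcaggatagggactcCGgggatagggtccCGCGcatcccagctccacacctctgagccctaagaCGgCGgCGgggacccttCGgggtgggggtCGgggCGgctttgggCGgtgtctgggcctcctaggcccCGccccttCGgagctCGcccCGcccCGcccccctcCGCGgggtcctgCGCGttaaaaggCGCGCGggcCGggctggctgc
KRT8: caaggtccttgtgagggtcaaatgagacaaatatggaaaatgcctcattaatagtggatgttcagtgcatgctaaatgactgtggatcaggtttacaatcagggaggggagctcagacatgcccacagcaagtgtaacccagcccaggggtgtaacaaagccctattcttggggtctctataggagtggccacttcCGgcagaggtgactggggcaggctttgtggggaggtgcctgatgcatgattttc
DBH: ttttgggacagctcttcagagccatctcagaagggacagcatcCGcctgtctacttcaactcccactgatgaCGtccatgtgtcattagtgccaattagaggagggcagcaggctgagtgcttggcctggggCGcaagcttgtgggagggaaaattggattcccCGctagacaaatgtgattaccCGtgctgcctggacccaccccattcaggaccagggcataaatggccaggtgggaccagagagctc

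Over 13682 protein-coding genes with a promoter in that table, out of 16837 tested, the median number of CG in these 250 bases was 22 for genes above background (quartiles 16 and 29) and 8 for genes below it (quartiles 2 and 20). The letters TATAAA, searched on both strands, were in 4.74% of the promoters of genes above, 13.8% of those below and 8.82% of all. The letters GGGCGG, which themselves hold a CG, were in 70.5%, 42.0% and 57.5%. The ranges of the 2 classes overlap. Among the printed windows, that of undetected PHOX2A holds more CG than that of detected GATA2, and that of bright KRT8 holds the fewest of the 4. Each gene was given a single start, so a window, that of KRT8 included, need not be the promoter in use in these cells. A match of letters is a description of the window and not a binding site.

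Among enzymes and transporters of noradrenaline synthesis, those that make and take up the transmitter itself were below background. TH, the rate-limiting tyrosine hydroxylase, lay at 4.56, 4.58 and 4.58. DBH, which makes noradrenaline from dopamine, lay at 4.21, 4.21 and 4.25. The decarboxylase DDC (mean 4.02) and the noradrenaline transporter SLC6A2 (mean 3.96) were also below the level on every array. Of 15 members 5 were above background (33.3%, against 43.1% of all genes). They were the enzymes of the tetrahydrobiopterin cofactor SPR (8.48), PTS (6.92), GCH1 (6.26) and QDPR (6.04), and the monoamine oxidase MAOA (7.24). All of these also serve in other cell types. The limma adjusted p for lying below the level was 5.8e-06 for TH and 4.13e-06 for DBH.

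Proteins of the neurosecretory granule showed a similar split. CHGA and CHGB, the chromogranins that mark neuroendocrine cells, had means of 4.14 ± 0.00 and 4.25 ± 0.04, and the secretogranins SCG2 and SCG3 had means of 3.46 and 3.75, all below background. Of 19 measured members 4 were above it (21.1%, against 43.1% of all genes). They were the neuropeptide precursor GAL, at 9.42, 9.54 and 9.70, the peptide-processing enzymes PAM (8.26) and CPE (7.38), and NPY, close to the level at 6.09, 6.06 and 6.24.  Among receptors for these peptides GALR2 (7.47) was above background, while GALR1 (3.53), NPY1R (3.84), NPY2R (4.09) and NPY5R (3.48) were below it.

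Surface genes used to recognise neuroblastoma were above background in 3 of 17 cases (17.6%, against 43.1% of all genes). The receptor kinases ALK, at 3.90, 3.96 and 3.96, and RET, at 4.35, 4.42 and 4.51, lay below it. DLK1 (4.58) and the neural adhesion molecule L1CAM (4.56) did too. NCAM1, a neural adhesion molecule found on neuroblastoma and many neural cells, lay at 7.54 on each array. The Wnt receptor FZD3 was at 9.75, 9.32 and 8.85, and CNTFR stood at the edge of the level at 5.87, 5.89 and 5.81 (adjusted p = 0.0132).

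Pan-neuronal genes were above background in 6 of 24 cases (25%, against 43.1% of all genes). With the olfactory receptor level 10 were above (41.7%, against 55.9% of all genes). The RNA-binding protein ELAVL4, at 3.76, 3.70 and 3.76, and the stathmin STMN2, at 3.79, 3.83 and 3.83, were below background. The growth-cone gene GAP43 (4.66) and the peripheral neurofilament gene PRPH (4.88) were below it as well. The brightest member was the ubiquitin hydrolase UCHL1, at 11.49, 11.67 and 11.79. Next came DPYSL3 (9.17), a protein of axon guidance, then the neurofilament light chain gene NEFL, at 8.09, 8.14 and 8.30, and the intermediate filament gene INA, at 7.93, 7.80 and 7.83. The neurofilament genes NEFM (4.14) and NEFH (4.65) were below the level, like PRPH. UCHL1, DPYSL3, NEFL and INA were thus detected, while most neuronal genes of the list were not.

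**Figure D2:**
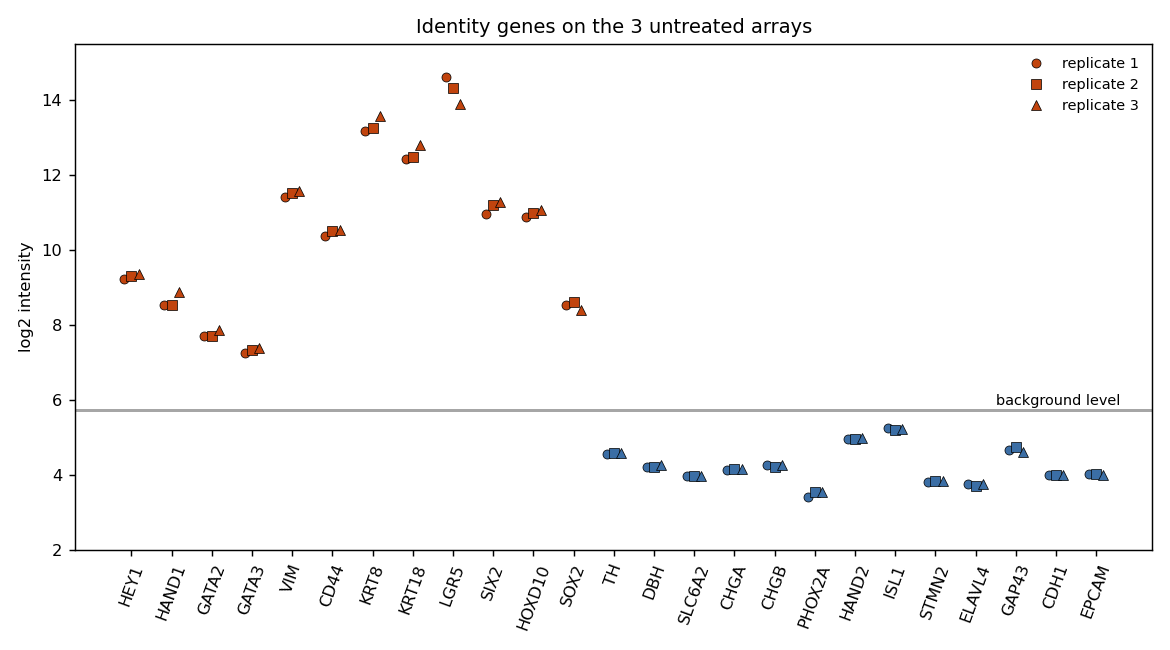
Log2 intensity of 25 identity genes on each of the 3 untreated arrays; symbols are replicates, red marks genes called above and blue genes called below the background level, drawn as a grey band. The genes on the left lie from 7.26 (GATA3) to 14.61 (LGR5), and the genes on the right, with TH, DBH, CHGA and PHOX2A among them, lie at 5.25 (ISL1) or lower.

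Of 26 lineage lists 2, both mesenchymal, had a larger share above background than the 43.1% of all genes. With the olfactory receptor level 4 did, the noradrenergic factors and, by a small margin, the kidney epithelial genes (56.2% against 55.9%) among them. Mesenchymal neuroblastoma transcription factors were above the main level in 18 of 27 cases (66.7%, against 50.2% of protein-coding genes). This share is not particular to them: Notch pathway genes had 68.0% above, and E proteins and broadly used bHLH factors 69.7%. The mesenchymal factors above included the receptor NOTCH2, at 10.65, 10.77 and 10.82, the inhibitor of bHLH factors ID1 (10.73), the Hippo effector YAP1 (9.29), and SMAD3 (9.10). ZEB1 (7.98), SOX9 (7.30), SNAI2 (6.68) and TWIST1 (6.30) were above the level too. PRRX1, a factor that can switch neuroblastoma cells to the mesenchymal state, could not be told apart from it at 5.71, 5.52 and 5.52.

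Mesenchymal and fibroblast genes were above background in 15 of 32 cases. This share, 46.9%, is near the 43.1% of all genes and under the 50.2% of protein-coding genes, so the list as a whole does not stand out. VIM, the intermediate filament of mesenchymal cells, lay at 11.42, 11.52 and 11.58. The hyaluronan receptor CD44 lay at 10.38, 10.51 and 10.54 in the brightest of its probe sets, and their average gave a mean of 8.13, also above background. The annexins ANXA1, at 14.13, 14.04 and 13.27, and ANXA2, at 13.52, 13.69 and 13.62, were brighter still, and SPARC (10.63), CCN2 (9.92) and FN1 (9.17) were also above. The fibrillar collagen gene COL1A1, which fibroblasts express strongly, was below the level at 4.69, 4.70 and 4.70. VIM, CD44 and the annexins were thus bright on all 3 arrays, and COL1A1 was at background on all 3.

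Among epithelial genes KRT8, KRT18, the desmosomal DSP and the tight junction gene OCLN were bright, while CDH1 and EPCAM were below background. The desmosomal cadherin genes DSG1, DSG3 and DSC1 were below it too, while DSG2 (9.88), DSC3 (9.62) and DSC2 (8.16) were above it. Claudins and tight junction genes were above it in 6 of 31 cases (19.4%). KRT8 and KRT18, partner keratins of simple epithelia, lay at 13.18, 13.27 and 13.57 and at 12.42, 12.48 and 12.80. Of 48 keratin genes 4 were above the level, and the remaining ones were KRT19 (6.37) and KRT7 (6.12). A second probe set annotated as KRT8 gave 10.62, 10.71 and 11.10. Its name places it on chromosome 8, while the brighter set is on chromosome 12, where the KRT8 gene lies. Since KRT8 and KRT18 have many near-identical pseudogenes, their values are uncertain as to locus. CDH1, the epithelial cadherin, lay at 3.99 on each array, and EPCAM lay at 4.03, 4.03 and 3.98. In all 9 of 31 simple epithelial genes were above background (29.0%, against 43.1% of all genes), with DSP at 10.80, OCLN at 9.98 and JUP at 7.67.

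Other lineage lists had a few bright members each, with shares under the 43.1% of all genes at the main level. Among trophoblast genes 5 of 24 were above background, with TEAD4 at 9.79, TFAP2A at 8.98, TFAP2C at 6.96 and CGA, the hormone alpha subunit, at 6.80. GCM1 (3.90), ERVW-1 (4.32) and PSG1 (3.87), which mark trophoblast, were below it. Among kidney epithelial genes 4 of 16 were above: SIX2, a factor of nephron progenitors, at 10.97, 11.20 and 11.28, SALL1 at 6.55, EYA1 at 6.53 and WT1 at 6.39. PAX8 (4.16), PAX2 (4.97), LHX1 (5.15) and CDH16 (4.00) of the same list were below. The intestine and pancreas list had 1 of 19 members above, the stem cell receptor LGR5, at 14.61, 14.31 and 13.89. LGR5 was the brightest gene of any lineage list.

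Neural progenitor genes were above background in 4 of 15 cases (26.7%, against 43.1% of all genes). SOX2, a factor of neural and pluripotent stem cells, lay at 8.52, 8.60 and 8.39, MSI1 had a mean of 9.57 and PAX6 one of 7.60. SOX1 (3.54) and NES (4.99) were below the level. Among 16 pluripotency genes the 4 above were SOX2, PODXL (7.33), LIN28B (7.26) and DNMT3B (6.67), while POU5F1 (4.15), NANOG (4.37) and LIN28A (4.33) were below. Astrocyte and oligodendrocyte genes were above the level in 2 of 15 cases (13.3%, against 43.1% of all genes), the brighter at 8.96. Schwann and melanocyte genes were above it in 2 of 15 cases as well, the brighter at 8.98. The glial genes GFAP (4.43), OLIG2 (4.52), SOX10 (4.51) and S100B (3.90) were below it.

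Markers of cell types from outside the nervous system were low in most lists. Hepatocyte, lung and thyroid, adrenal cortex and gonad, and erythroid and megakaryocyte genes had none above the level in limma's test, of 18, 13, 14 and 14 measured. Their brightest means were 5.80, 5.36, 4.55 and 5.63. Leukocyte genes were above in 2 of 29 cases, the lysosomal gene CD68 (7.43) and IKZF3 (6.85), while the pan-leukocyte gene PTPRC was at 3.65. Endothelial genes were above in 2 of 18 cases, FLT1 (6.51) and SOX7 (6.45), with PECAM1 at 3.16 and CDH5 at 4.13. Muscle genes were above in 3 of 24, with ACTA1 at 8.19 and MYOD1 at 3.68. The cancer-testis list, often derepressed in tumours, had PRAME (6.56) alone above background among 28 members. PHOX2A, TH, DBH, CHGA, CHGB, ELAVL4 and STMN2 were thus below background, while GATA2, GATA3 and HAND1 of the noradrenergic list were detected. So were NCAM1, GAL, NPY, UCHL1, NEFL and INA of the surface, granule and pan-neuronal lists. With the olfactory receptor level 18 of 24 noradrenergic factors were above (75%, against 55.9% of all genes). No reference profile of SH-SY5Y was compared, and the identity of the line was not tested. With the main level no lineage list had a larger share of its members above background than 66.7%. The cells are called here the cells labelled SH-SY5Y.

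**Figure D3:**
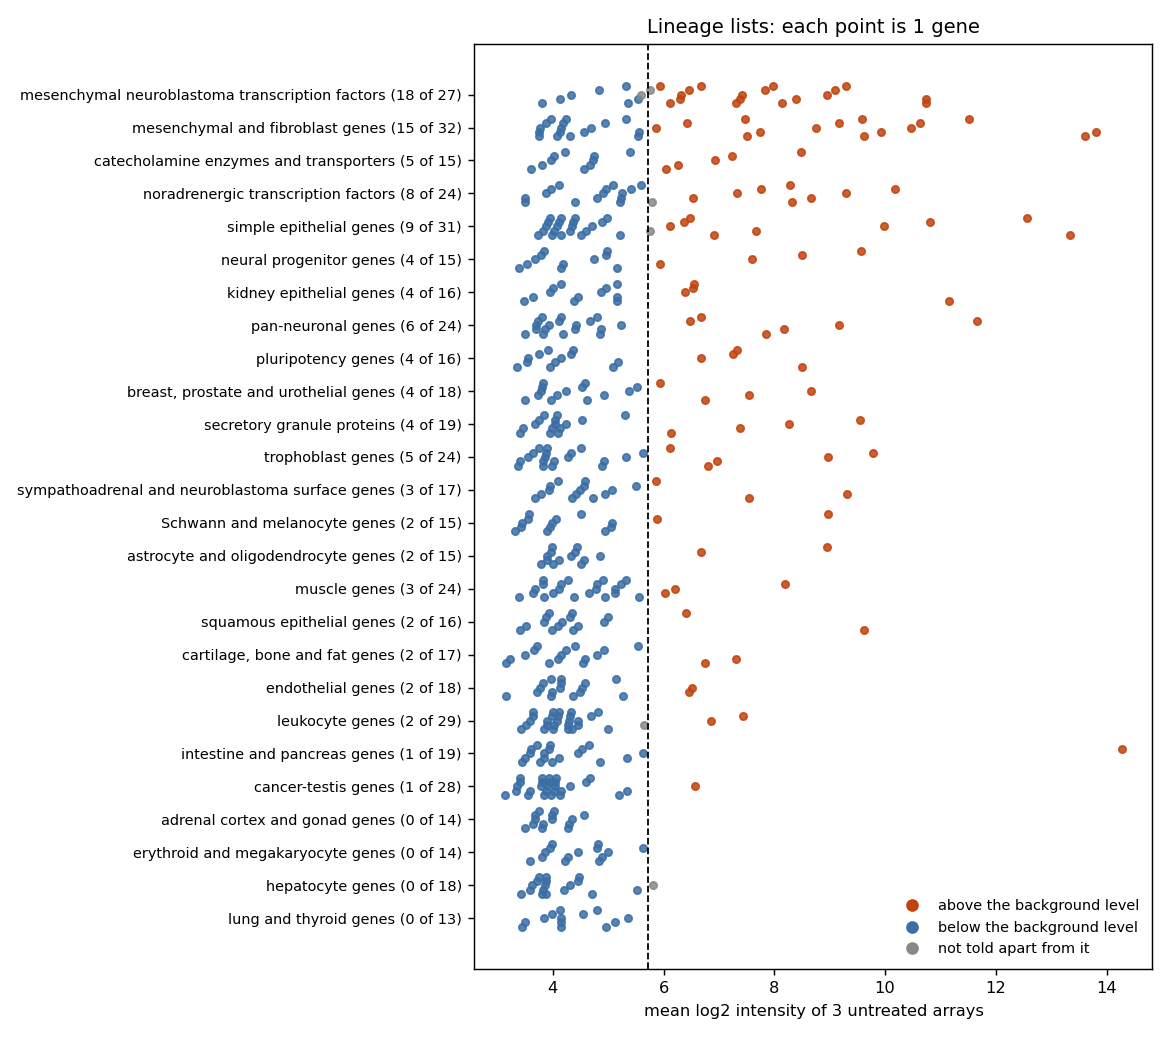
Mean log2 intensity over the 3 untreated arrays of every measured gene of 26 lineage lists, ordered by the share of members above the background level (dashed line); the number above and the number measured stand beside each name. The 2 mesenchymal lists stand at the top with 18 of 27 and 15 of 32 members above, and 4 lists have none.

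Among transcription factors, HOX genes, which give position along the body axis, were above background in 12 of 25 measured cases (48.0%). This share is near the 43.1% of all genes and under the 50.2% of protein-coding genes. HOXD10 was by far the brightest, at 10.87 on replicate 1, 11.06 on replicate 3 and a mean of 10.98 ± 0.10 (SD, n = 3), followed by HOXB9 (9.02, 8.98 and 9.20) and HOXD11 (8.12, 8.02 and 8.12). HOXB7 (7.75), HOXC6 (7.71) and HOXD13 (7.44) were next. HOXD12, between bright neighbours in the cluster, had a mean of 3.74. HOXB1 was at 3.46 and HOXD1 at 4.26. These 3 genes were named after their values were seen. Most of the HOXA cluster was not analysed here.

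**Figure D4:**
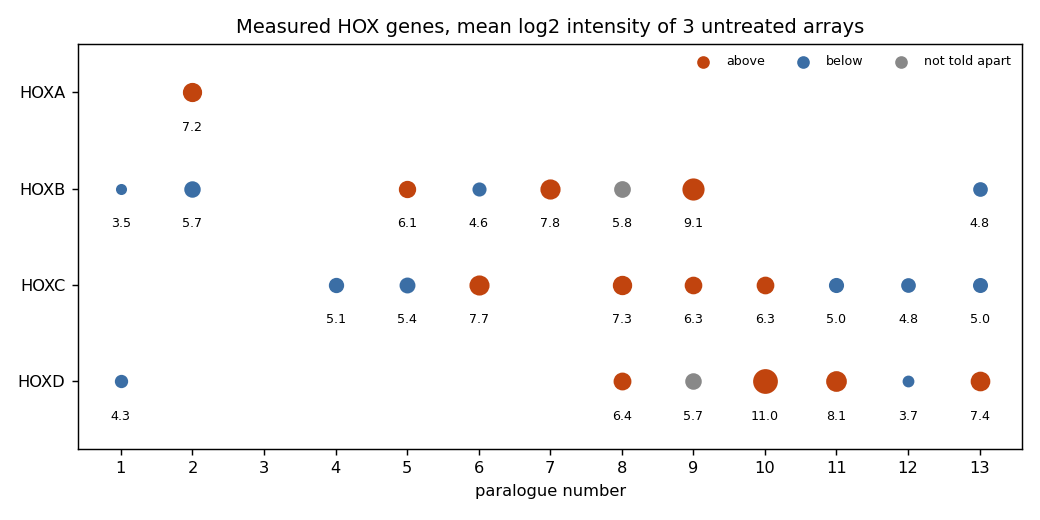
The 25 measured HOX genes by cluster (rows) and paralogue number (columns), with the mean log2 intensity of the 3 untreated arrays printed under each point; point area grows with intensity, and red, blue and grey mark genes above, below and not told apart from background. The brightest, HOXD10, has a mean of 10.98, and HOXD12 has one of 3.74.

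Developmental factor families ranged from few members detected to shares over the 43.1% of all genes. AP-2 and grainyhead factors were above background in 6 of 11 cases, and TALE homeobox genes in 7 of 16. DLX, MSX and NKX genes were above in 8 of 21. Proneural and tissue bHLH factors were above background in 3 of 38 cases, namely HAND1, MESP2 (7.13) and TWIST1. POU factors were above in 2 of 12, with the sensory neuron factor POU4F1 at 7.83, 7.83 and 7.72, and SOX factors in 4 of 19, namely SOX4, SOX2, SOX9 and SOX7. Of 6 GATA factors 3 were above, GATA6 (7.84) beside GATA2 and GATA3. ZIC2, a factor of the dorsal neural tube, was the brightest of the ZIC and GLI factors at 10.82, 10.79 and 10.84. Among 45 forkhead factors 16 were above, led by FOXJ3 (12.11), FOXK2 (10.83), FOXM1 (10.72), a cell cycle factor, and FOXF2 (10.07), a mesenchymal one. TBX20 (8.30), TBX3 and TBX18 (7.83) were among 6 of 17 T-box factors above the level.

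General and growth-related factors were detected in shares that differed by list. The E2F, SMAD and E protein lists lay over the 43.1% of all genes and the 50.2% of protein-coding genes. AP-1, ATF and CREB factors (17 of 36) and KLF and SP factors (13 of 26) lay between these shares. So did ETS factors (12 of 26). Nuclear receptors, at 14 of 40, lay under both shares. All 13 members of the E2F and RB family were above background, with RB1 at 10.67, E2F1 at 10.41 and TFDP1 at 9.83. SMAD and TCF factors were above in 11 of 12 cases, with CTNNB1 at 10.70. E proteins and broadly used bHLH factors were above in 23 of 33. Of the immediate-early AP-1 genes FOS (4.95), FOSB (4.79) and FOSL1 (5.37) were below the level, while ATF4 (12.61) and ATF6 (12.60), factors of the integrated stress and unfolded protein responses, were bright. The oestrogen receptor genes ESR1 (3.80) and ESR2 (4.05) were below it and the glucocorticoid receptor gene NR3C1 (7.71) above it.

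Receptors for neurotransmitters were nearly all at background. Of 53 receptors for monoamines and acetylcholine 3 were above it (5.66%), and of 45 for glutamate, GABA and glycine 1 was (2.22%), against 43.1% of all genes. The nicotinic subunit CHRNA5 was the brightest, at 9.75, 9.89 and 9.94. DRD4 (6.15) and CHRM3 (6.04) were close to the level, and the GABA-B subunit GABBR1 lay at 7.92, 7.83 and 7.88. CHRNA3, which with CHRNB4 and CHRNA5 makes the ganglionic nicotinic receptor and was named after its value was seen, was below the level at 4.74, 4.69 and 4.74.

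Receptor tyrosine kinases were above background in 15 of 39 cases (38.5%, against 43.1% of all genes). The Wnt co-receptor RYK had the highest mean, 12.14 ± 0.04, followed by the insulin-like growth factor receptor IGF1R at 10.96, 11.07 and 11.28. KIT, the stem cell factor receptor, lay at 8.85, 8.93 and 8.90. MET (7.91), FGFR1 (7.39) and EGFR (7.31) were lower and above the level on every array. Among ephrins and their receptors 8 of 21 were above (38.1%), with the ligand EFNA5 brightest at 10.06.

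Wnt, Notch, Hedgehog and TGF-beta pathway genes are set beside the 43.1% of all genes and the 50.2% of protein-coding genes above background. Wnt receptors and secreted inhibitors were above background in 15 of 26 cases (57.7%), among them LGR5, its relative LGR4 (10.83, 10.73 and 10.40) and FZD7 (10.65, 10.76 and 11.24). Notch pathway genes were above in 17 of 25 (68.0%), and the brightest was the feedback inhibitor NRARP, at 12.01, 12.20 and 12.58. The Notch targets HEY2 (9.32), HEY1 (9.30) and HES1 (8.51) and the receptor NOTCH1 (7.24) were above, and NOTCH3 (5.39) and NOTCH4 (4.93) were below. Hedgehog pathway genes were above in 7 of 13 (53.8%) and below in 6. The receptor gene PTCH1 had a mean of 9.75, the effector GLI3 one of 9.71 and the transducer SMO one of 7.13. The ligand genes SHH (4.54), IHH (3.96) and DHH (3.70) were below background, and so were the effector and pathway target GLI1 (4.63), the inhibitor HHIP (4.22) and the co-receptor BOC (5.35), the last 3 named after their values were seen. TGF-beta and BMP receptors were above in 10 of 13 cases (76.9%), led by BMPR2 (10.48).

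Immune receptors divided by type. Cytokine and interferon receptors were above background in 12 of 42 cases (28.6%, against 43.1% of all genes). Of these, IL13RA1 (10.10), IFNAR1 (9.64), the shared subunit IL6ST (9.36) and LIFR (9.24) were brightest, and IL6R (5.52) was below. TNF receptors gave all 9 of the members above the level in a list of 30 TNF and toll-like receptors. The brightest was the TWEAK receptor TNFRSF12A, at 11.30, 11.87 and 11.72, while FAS (5.06) was below. CXCR4, a chemokine receptor of neural crest and blood cells, was above at a mean of 6.82. Among guidance receptors 9 of 21 were above (42.9%, near the share of all genes), with NEO1 at 11.57 and ROBO1 at 10.37.

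Among adhesion genes N-cadherin was bright and E-cadherin was at background. CDH2 lay at 10.88 on replicate 1 and 10.94 on replicate 2, with a mean of 10.94 ± 0.06 (SD, n = 3), beside 3.99 for CDH1, each being set against background and not against the other. Of 28 classical and desmosomal cadherins 6 were above the level (21.4%, against 43.1% of all genes), among them the desmosomal DSG2 (9.88), DSC3 (9.62) and DSC2 (8.16). Their partners DSP, PKP2 (9.53) and JUP, and PERP (11.05), were above it too, in a desmosome and catenin list with 9 of 15 members above (60.0%). Integrins were above in 7 of 26 cases (26.9%), with the shared beta subunit ITGB1 at 11.87, 11.73 and 11.35 and ITGAV at 10.43, 10.10 and 9.48. ITGA5, a subunit of the fibronectin receptor, lay at 7.81, 7.95 and 8.23, and the laminin receptor subunit ITGA6 had a mean of 7.86.

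Other surface and matrix genes were unevenly detected. Protocadherins, which give neurons their surface identity, were above background in 4 of 42 cases (9.52%, against 43.1% of all genes), and the brightest was PCDHB2 (7.55). Immunoglobulin adhesion molecules were above in 15 of 42 (35.7%), with BSG (11.80) and CADM1 (11.31) brightest and ICAM1 (5.08) below. Laminins and collagens were above in 7 of 49 (14.3%), 5 of the 6 brightest being laminin chains, with LAMC1 at 11.93, LAMB1 at 8.15 and LAMA1 at 6.98. Proteoglycans and tetraspanins were above in 24 of 45 (53.3%, near the 50.2% of protein-coding genes), led by TSPAN6 (12.18), TSPAN3 (12.01) and CD151 (11.93). Of 19 connexins and pannexins 4 were above (21.1%), with GJA1 at 8.80.

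**Figure D5:**
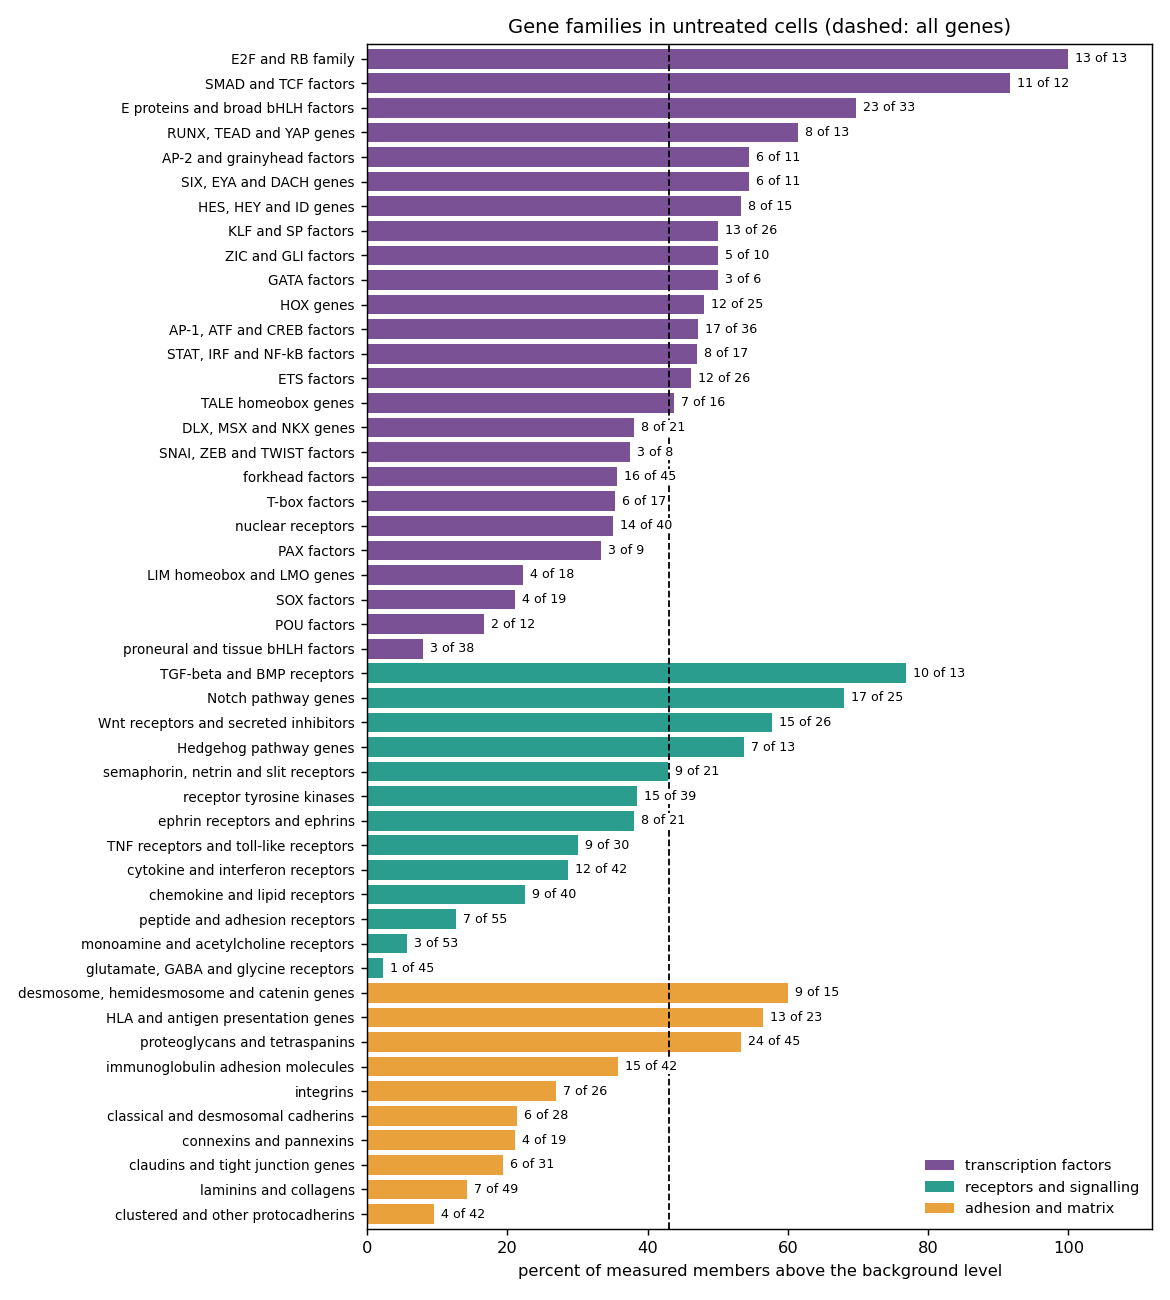
Percent of the measured members of each gene family above the background level in untreated cells, with the number above and the number measured; colours separate transcription factors, receptors and adhesion genes, and the dashed line is the 43.1% of all genes. E2F and RB genes stand at 13 of 13, and receptors for glutamate, GABA and glycine at 1 of 45.

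RNA of serine/threonine phosphatase catalytic subunits was detected in the untreated cells. All 11 measured were above background, against 43.1% of all genes. They include the calcineurin genes PPP3CA (10.11), PPP3CB (9.41) and PPP3CC (6.73). Protein was not measured, and which of the 11 are inhibited at the doses of this series was not tested. PPP2CA, the main subunit of PP2A, lay at 10.90, 10.88 and 10.61, and PPP2CB at 9.11, 9.23 and 9.33. PPP6C (13.10) and the PP1 subunits PPP1CC (12.62), PPP1CA (11.17) and PPP1CB (11.16) were also bright. The hepatic organic anion transporter genes SLCO1B1 (3.63) and SLCO1B3 (3.45) and the drug-oxidising enzyme gene CYP3A4 (3.87) were below the level. The efflux pump gene ABCB1 could not be told apart from it at 5.63, 5.62 and 5.38 (adjusted p = 0.0775), while ABCC1 was at 9.09, 9.30 and 9.42.

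Genes of growth control were mostly detected. Of 12 cell cycle inhibitors and p53 axis genes 9 were above background. MDM2, the p53 ubiquitin ligase, lay at 11.84, 11.66 and 11.46, CDKN1A at 7.22, 7.27 and 7.36, and CDKN2A at 6.84 on each array. CDKN2B (6.48) and MTAP (7.46), neighbours of CDKN2A that are often deleted with it in tumours, were above the level. The telomerase gene TERT, named after its value was seen, was below it at 4.84, 4.84 and 5.01.

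The 3 arrays were close to each other, with replicate 3 farthest from replicate 1. Across genes, which are not independent replicates, the correlation of log2 intensity was 0.9985 between replicates 1 and 2, 0.9978 between 2 and 3 and 0.995 between 1 and 3. The median range over the arrays was 0.20 for genes above background, and 218 of them had a range over 1. Of these 218 genes 204 were highest on replicate 1 and 204 lowest on replicate 3. The mitotic spindle gene ASPM lay at 9.85, 8.72 and 7.85 on replicates 1, 2 and 3. CENPF, a kinetochore gene, lay at 9.37, 8.14 and 7.52, and SMC2, a condensin subunit, at 10.82, 9.91 and 8.96. The small RNA gene VTRNA2-1 differed the other way, at 7.71, 8.77 and 9.75. Among identity genes FZD3, ITGAV, ANXA1 and LGR5 were also lowest on replicate 3, and KRT8 and KRT18 were highest there. What sets replicate 3 apart was not tested.

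Equal values recurred between arrays. On all 3 arrays 2841 genes had the same value, of which 350 were above background (NCAM1 and EEF1A1 among them), and so did 17 of the 23 background probe sets. For such genes the spread between arrays is 0 and the SE rests on the level's own spread and on limma's shared estimate.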

How the data were processed

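Total RNA was measured on 9 arrays, and the 3 of untreated cells were used here. The table that the authors deposited holds linear-scale intensities of 70523 probe sets. RMA, which corrects background, normalizes arrays and summarises probes, is named in the submitters' processing notes; for its version, the genome build and the array annotation, the sources used here give nothing. RMA-type processing makes the arrays' distributions alike. The deposited intensities were put on a log2 scale with no constant added. Of the probe sets 23781 had 1 gene symbol in the platform annotation and were used, 1543 had several and were left out, and the remainder had none listed. Where a gene had several (479 genes), the probe set brightest in the untreated arrays stood for it, leaving 22465 genes. A RefSeq table of GRCh38.p14 held the gene numbers of 20295, and 0 symbols changed.

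Each gene's log2 value minus the array's background level (95th percentile of 23 background probe sets) was tested against 0 in limma 3.58.1 (lmFit and eBayes without trend, R 4.3.3), two-sided, and called at a Benjamini-Hochberg adjusted p under 0.05. The level rests on the background sets named for the lowest GC numbers, while the median set was at 3.23. Simulated on the untreated arrays, with 50 genes at each distance within 22465, the test called 0% above and 4% below of genes at the level, and called above 74% of those 0.25 over it, 98% of those 0.5 over it and 100% of those 1 over it; of those 1 under it 98% were called below. The simulation took the level as known and drew the noise of each gene independently. Its rates therefore leave out error in the level itself, which all genes share, and the choice of level. The number of arrays, 3, limits the precision.

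The 86 gene lists, the genes of interest and the promoters were chosen with earlier results of these data known. Genes were named by a rule: the 30 brightest, up to 6 of the brightest detected members and the first 4 members of each list, family members above the level where there were 6 or fewer, the 10 with the largest range, and the 8 genes HEY1, HAND1, GATA2, GATA3, VIM, CD44, KRT8 and KRT18; the text marks names chosen otherwise. Lists were described by counts, with no set test. Alternatives changed the background level, normalization, probe set rule, spread, pseudocount and replicates. Figures were drawn with matplotlib 3.10.9.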

Additional observations from a re-analysis of the deposited data

How the results depend on the processing

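The background level decided how many genes were called. With the highest background probe set in place of the 95th percentile 7271 genes were above it, with the 95th percentile of the olfactory receptors 12568, and with the median background set 21647 above and 242 below, a level under most genes of the array. The count otherwise lay between 9361 (one level pooled over the arrays) and 10844 (probe sets with several symbols added), and without 1 replicate at a time between 9193 and 9781 above and between 11810 and 12150 below. With the median set all or nearly all members counted as above: 23 noradrenergic transcription factors, 15 catecholamine, 19 granule, 24 pan-neuronal, 32 mesenchymal and fibroblast and 31 simple epithelial genes. With the olfactory level 18 of 24 noradrenergic factors (75%, against 55.9% of all genes, so that the order seen with the main level reverses) and 10 pan-neuronal genes were above it, HAND2, ISL1 and MAPT among them, while TH, DBH, CHGA, PHOX2A, CDH1 and EPCAM stayed below. With the highest set 3 catecholamine genes were above. HEY1, HAND1, GATA2, GATA3, VIM, CD44, KRT8, KRT18, LGR5, SIX2, HOXD10, SOX2, CDH2, KIT, UCHL1 and NEFL were above under every alternative run. Over the 86 lists the count of members above moved by over 1.5 times in 31 with the highest set, 77 with the median set, 47 with the olfactory level, 1 with the pooled level, 1 without replicate 1, 1 without replicate 2 and 0 under the others. Averaging the probe sets of a gene moved the mean of 3 of 25 named genes, CD44 from 10.48 to 8.13, KRT8 from 13.34 to 12.07 and MAPT from 4.86 to 4.63. The KRT8 average takes in the probe set whose name places it on chromosome 8, away from the KRT8 gene. No paired analysis was possible because a single group was described.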
